A study of Mus musculus with 2 samples.

Results

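The genes described are Nxpe2, Nxpe3, Nxpe4 and Nxpe5, the 4 members of the mouse Nxpe family (neurexophilin and PC-esterase domain family, formerly Fam55) that the tables list by symbol, out of 22350 listed symbols. They were taken by symbol, but the family itself was chosen by the FPKM levels of Nxpe2 and Nxpe4 in these same libraries, so the levels below are a description and carry no test. The RNA came from epithelial cells of the colon of C57BL/6 mice, with 1 library from wild type and 1 from Pkm2-/- animals. Both genotypes had been given 2.5% DSS (dextran sulfate sodium, which damages the colonic epithelium) for 3 days, so neither library is from untreated mice. The sources used here do not give the number of animals behind a library, the design of the Pkm2 allele or the cells in which it is absent.

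Nxpe proteins combine a domain related to neurexophilins, small secreted ligands of the neuronal receptors called neurexins, with a domain of the PC-esterase fold. The same fold occurs in CASD1, the enzyme that adds O-acetyl groups to sialic acids, the acidic sugars at the ends of mucin glycans. Human NXPE genes are known for expression in the large intestine, and human NXPE1 has been linked to O-acetylation of sialic acids in colonic mucus. The functions of the mouse members are less well known.

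The 4 genes lie on 3 chromosomes, and none lies beside Pkm, the gene of the deleted pyruvate kinase isoform. Coordinates are on GRCm38. Nxpe2 (ENSMUSG00000032028) spans chromosome 9, 48318006 to 48353454, on the minus strand, and Nxpe4 (ENSMUSG00000044229) follows it at 48362041 to 48400025 on the plus strand, 8586 bases further on. Pkm starts at 59656368 on the same chromosome, 11.3 Mb beyond the end of either gene, and 86 genes averaging 1 FPKM or more lie between Nxpe4 and Pkm. Nxpe3 (ENSMUSG00000075033) is on chromosome 16, 55839953 to 55895279, and Nxpe5 (ENSMUSG00000047592) is on chromosome 5, 138225898 to 138253363. The mouse counterpart of human NXPE1, the pseudogene Nxpe1-ps, is annotated next to Nxpe4 at 48418321 to 48431959 and is listed in neither library.

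The promoters of Nxpe2 and Nxpe4 are shown because these are the members with differing levels. Each is the RefSeq window of 250 bases before to 50 bases after the start on GRCm38.p6, in the direction of the gene, for Nxpe2 chr9:48340849-48341148 (minus strand) and for Nxpe4 chr9:48361791-48362090 (plus strand). Capitals mark matches on either strand to any of 8 motifs searched: TTTATG for CDX factors, TATAAA for the TATA box, AGATAA for GATA factors, CAAAGT for HNF4, GTTAAT for HNF1, TTCNNNGAA for STAT factors, ACGTG for HIF, and the interferon-stimulated response element. The motifs were picked with the members known, for factors with roles in intestinal epithelium or in hypoxia and inflammation. The RefSeq start of Nxpe2 lies inside the span that the deposited table gives for the gene, not at its end.
Nxpe2: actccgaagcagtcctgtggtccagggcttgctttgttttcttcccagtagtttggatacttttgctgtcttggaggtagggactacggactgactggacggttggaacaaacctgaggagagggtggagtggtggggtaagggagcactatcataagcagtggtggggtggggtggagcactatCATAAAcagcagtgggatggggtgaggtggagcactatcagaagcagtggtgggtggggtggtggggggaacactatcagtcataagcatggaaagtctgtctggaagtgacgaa
Nxpe4: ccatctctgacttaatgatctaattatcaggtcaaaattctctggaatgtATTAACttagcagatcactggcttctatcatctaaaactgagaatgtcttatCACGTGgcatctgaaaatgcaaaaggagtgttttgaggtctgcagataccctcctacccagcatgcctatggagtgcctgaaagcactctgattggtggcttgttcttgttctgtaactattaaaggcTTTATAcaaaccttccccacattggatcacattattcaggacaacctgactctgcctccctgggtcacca

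The windows share no motif match. In Nxpe2 the capitals are 1 CDX match, 65 bases before the start, a motif that 11.9% of 32851 promoters of this length hold. In Nxpe4 they are, from the left, an HNF1 match, a HIF match that reads the same on both strands, and a TATA box match on the opposite strand 20 bases before the start, motifs held by 7.10%, 19.6% and 13.6% of promoters. The Nxpe2 window also repeats the word CACTATCA 4 times, a word that 0.237% of promoters hold at all and that no other promoter holds as often. It was picked as the most repeated word of 8 bases in this same window, so its rarity elsewhere carries no test. The promoters of Nxpe3 and Nxpe5 matched none of the 8 motifs. Base composition differed too, with 53.3% G and C in Nxpe2, 42.3% in Nxpe4, 70.7% in Nxpe3 and 45% in Nxpe5. These matches are a description of letters in the windows.

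The coding sequences show how far the members have diverged. Nxpe2 encodes 558 codons over 6 exons, Nxpe3 559, Nxpe4 543 over 9 exons and Nxpe5 542, stop codons not counted. Nxpe2 and Nxpe4, the neighbours, shared 68.8% of aligned coding bases, and the other 5 pairs shared between 55.5% (Nxpe2 and Nxpe5) and 58.8% (Nxpe2 and Nxpe3). Reads of the neighbours can mostly be told apart by sequence: of the 31-base words of the Nxpe4 transcript, 3.34% occur in Nxpe2 or Nxpe1-ps transcripts, and of those of Nxpe2, 1.26% occur in Nxpe4 or Nxpe1-ps. The GENCODE models of Nxpe4 include a start on the far side of Nxpe2, beyond the 3′ end of that minus-strand gene, so that the annotated genes overlap on opposite strands, with 0 exon bases in common. For Nxpe5, 8.33% of words occur in another gene model, Gm454, so its low value is the least certain.

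Levels are given as FPKM, fragments scaled to transcript length and library depth, which allows genes of different length to be compared. The lowest values cluster at the worth of 1 fragment, which corresponds to about 18700000 fragments for wild type and 20300000 for knockout. The 95% counting intervals below rest on the fragments this implies. They cover counting error only, and with 1 library per genotype no difference has a replicate check. In bulk RNA, fewer cells of a type and less RNA per cell cannot be told apart.

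Nxpe2 was the most abundant member in both libraries. Its level was 30.7 FPKM in wild type cells (95% counting interval 29.3 to 32.0, about 1931 fragments) and at 9.33 FPKM in the knockout library (8.62 to 10.1, about 638 fragments). The level was thus 3.29-fold lower in the knockout library (95% counting interval 3.00 to 3.60), a log2 ratio of -1.62 after adding 1 FPKM to both values. In the wild type library Nxpe2 stood above 88.1% of listed genes, and in the knockout library above 67.0%.

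Nxpe4 was clearly detected in the wild type library, above 68.6% of listed genes, and close to the detection limit in the knockout library, above 18.6%. Its level was 9.54 FPKM in wild type cells (95% counting interval 8.78 to 10.4, about 567 fragments) and at 0.124 FPKM in the knockout library (0.0536 to 0.244, about 8 fragments). The level was 77.2-fold lower in the knockout library (95% counting interval 38.8 to 179). The log2 ratio with 1 FPKM added was -3.23, because that scale understates differences of low values. Among 12421 genes that both libraries list and whose mean is at least 1 FPKM, this was the largest plain ratio in that direction, ahead of Rnf225 at 33.7-fold (2.78 and 0.0825 FPKM). On the log2 scale with 1 FPKM added, Nxpe4 had the 8th lowest ratio of 12429 genes and Nxpe2 the 90th lowest.

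**Figure D1:**
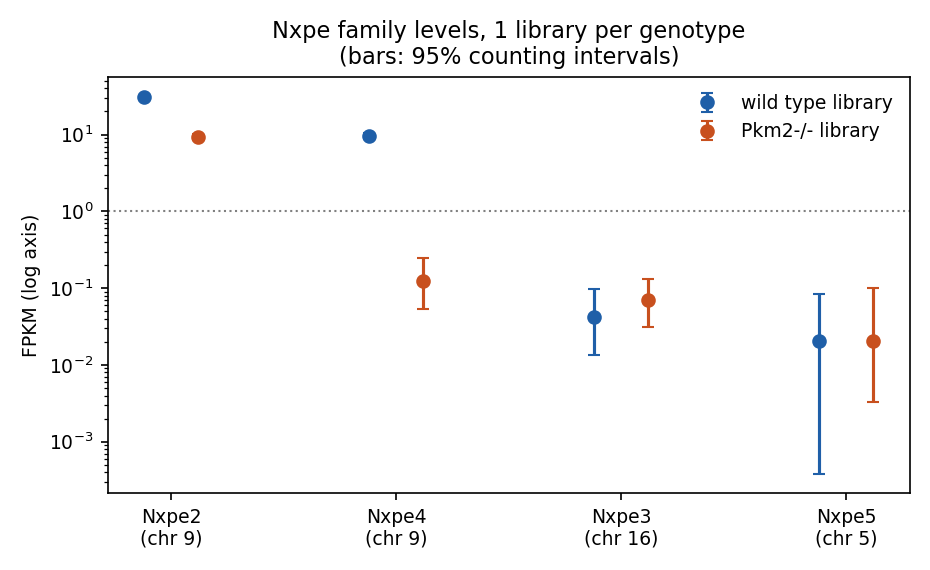
FPKM (log axis) of the 4 Nxpe genes in the wild type (blue) and Pkm2-/- (orange) library, 1 library each; bars are 95% counting intervals, smaller than the points for Nxpe2, and the dotted line is 1 FPKM. Nxpe2 (30.7 and 9.33 FPKM) and Nxpe4 (9.54 and 0.124 FPKM) have separate intervals between libraries, while those of Nxpe3 and Nxpe5 overlap and lie below 1 FPKM.

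Nxpe3 and Nxpe5 were near the detection limit in both libraries. Nxpe3 had 0.0427 FPKM in wild type cells (about 5 fragments) and 0.0693 FPKM in knockout cells (about 9 fragments), 1.62-fold higher with a 95% counting interval of 0.499 to 6.30. Nxpe5 stood at 0.0204 and 0.0206 FPKM, about 1 and 2 fragments, a knockout over wild type ratio of 1.01 with an interval of 0.0959 to 109. Neither gene differed detectably at this depth, and neither passed the filter of a mean of 1 FPKM.

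The order of levels was Nxpe2, Nxpe4, Nxpe3 and Nxpe5 in both libraries, but the spacing was not the same. In the wild type library Nxpe2 was 3.21 times as abundant as Nxpe4 (95% counting interval 2.92 to 3.53), and in the knockout library 75.5 times (37.9 to 175). This ratio within a library does not depend on how the libraries are scaled to each other. In the knockout library the counting intervals of Nxpe4 and Nxpe3 overlapped, so their order there is not resolved, and those of Nxpe3 and Nxpe5 overlapped in both libraries. Summed over the 4 genes, the family reached 40.3 FPKM in wild type and 9.54 FPKM in knockout cells. Nxpe4 made up 23.7% of the wild type sum and 1.29% of the knockout sum.

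Of the 4 members, 2 passed the filter and both were at least 2-fold lower in the knockout library. Across all genes counted, 1.9% were at least 2-fold lower and 1.42% at least 2-fold higher, with a median log2 ratio of 0.06. These counts, and all counts of 2-fold differences below unless a plain ratio is named, use ratios with 1 FPKM added to both values, which leaves out some genes of low level. By plain FPKM ratios, 3.11% of the same genes were at least 2-fold lower and 2.34% at least 2-fold higher. Since the family was picked with these values known, nothing is read from its share. Pkm itself was 3.26-fold lower, at 281 and 86.2 FPKM, a value that covers both of its splice isoforms.

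**Figure D2:**
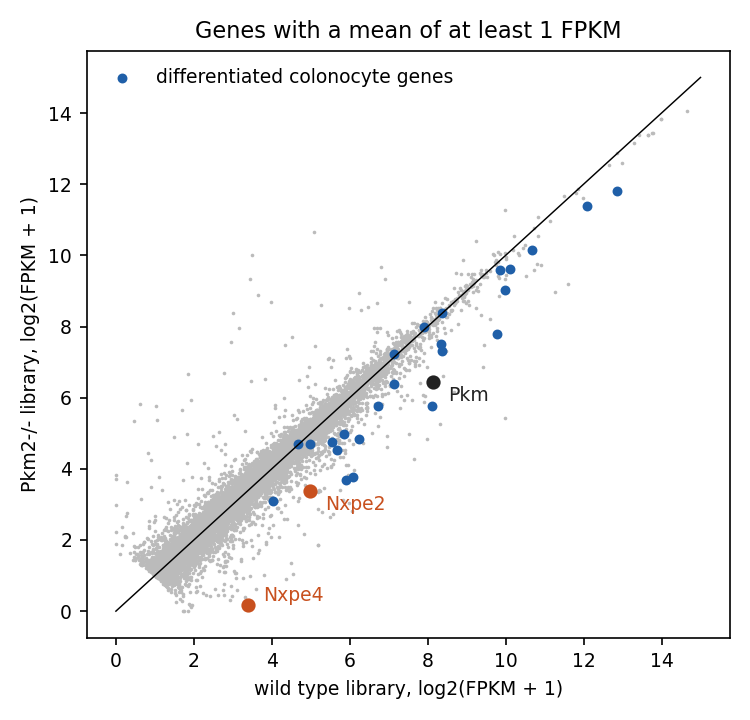
Levels of genes averaging 1 FPKM or more, as log2(FPKM + 1) in the wild type (horizontal) and Pkm2-/- library (vertical), 1 library each; the line marks equal levels. Nxpe4 lies near the floor of the vertical axis at 0.124 FPKM, while Nxpe2 (orange) lies beside the lower of the differentiated colonocyte genes (blue) and Pkm (black) is shown for reference.

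The counted genes near Nxpe2 and Nxpe4 were close between the libraries, but all of them lie on 1 side. Within 1 Mb, the same 5 other genes passed the filter for both members, and all 5 lay within 1.5-fold, with a median log2 ratio of 0.13. All 5 lie beyond Nxpe4, on the side towards Pkm. The nearest listed protein-coding gene on the far side of Nxpe4 is Rexo2, an oligoribonuclease gene 68.5 kb away, with 17.7 FPKM in wild type and 19.4 FPKM in knockout cells. On the other side of Nxpe2 the nearest is Cadm1, a cell adhesion gene 460 kb away, which was low in both libraries (0.292 and 0.276 FPKM). The largest difference of the 5 was that of Usp28, a deubiquitinase gene, at 5.62 and 4.01 FPKM. Among the counted genes of these windows, Nxpe2 and Nxpe4 alone differed by 2-fold or more. The side beyond Nxpe2 held no counted gene, so the values do not describe that flank.

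Most counted genes around Pkm were close between libraries as well. Of 12 other counted genes within 1 Mb of it, 1 (8.33%) was at least 2-fold lower with 1 FPKM added, against 1.9% of all genes counted. This was Thsd4 (4.50 and 1.70 FPKM), which encodes a protein of the extracellular matrix. Genes below the filter, such as Celf6 (1.21 and 0.553 FPKM), were not counted. The neighbours on either side of Pkm, Parp6 (11.97 and 10.1 FPKM), a poly(ADP-ribose) polymerase family gene, and Gramd2 (2.97 and 2.55 FPKM), differed by less than 1.5-fold. Of the 86 genes between Nxpe4 and Pkm, 2 (2.33%) were at least 2-fold lower, near the 1.9% of all genes counted. They were the nicotinic receptor subunit gene Chrnb4 (5.18 and 0.359 FPKM) and Dixdc1 (2.73 and 0.132 FPKM), a Wnt pathway gene. One gene there was at least 2-fold higher, Sema7a (1.51 and 7.43 FPKM), a semaphorin. Over the whole of chromosome 9, without Nxpe2, Nxpe4 and Pkm, 22 of 686 genes (3.21%) were at least 2-fold lower and 9 (1.31%) at least 2-fold higher.

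**Figure D3:**
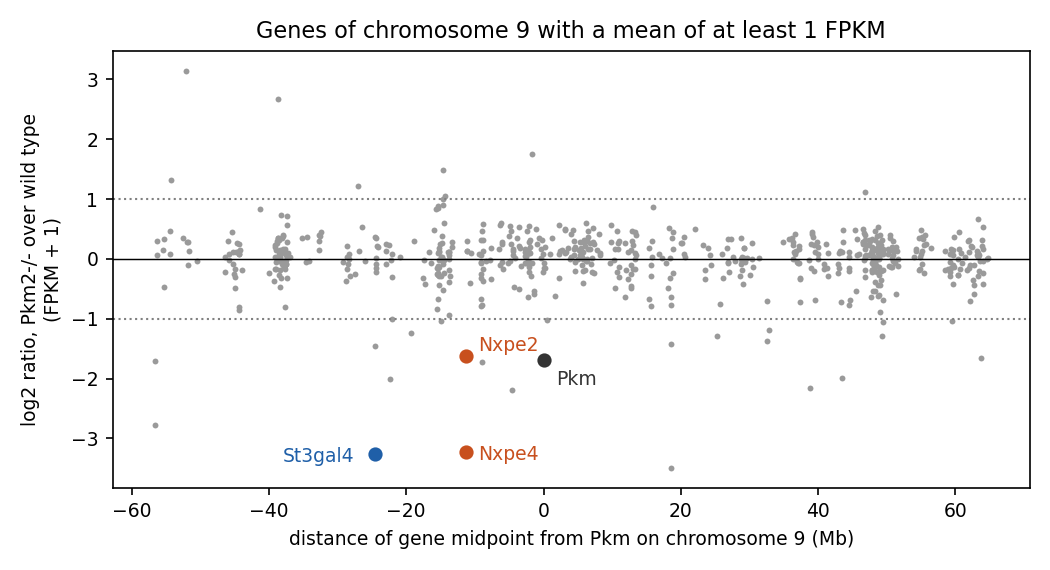
Log2 ratio (Pkm2-/- over wild type, FPKM + 1) of each chromosome 9 gene averaging 1 FPKM or more against the distance of its midpoint from Pkm in Mb; dotted lines mark 2-fold. Nxpe2 (-1.62) and Nxpe4 (-3.23) lie 11.3 Mb from Pkm (-1.69), and most genes at that distance and between lie near 0.

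On chromosome 9, Nxpe4 had the third lowest log2 ratio of 689 genes, after the small nuclear RNA gene Rn7sk (22.3 and 1.06 FPKM) and St3gal4, a sialyltransferase gene. Nxpe2 was the 13th lowest and Pkm the 11th.

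Because the PC-esterase fold is shared with an enzyme of sialic acid modification, the relatives of the family and the sialic acid genes were compared next. Of 10 relatives, 9 were listed and 2 passed the filter: Casd1, the sialic acid O-acetyltransferase (29.6 FPKM for wild type, 23.0 for knockout), and Pced1a (3.90 and 3.96 FPKM), another gene with this fold. The neurexin gene Nrxn2 (0.258 and 0.150 FPKM) was low in both libraries. Nrxn3, Nxph1, Nxph3 and Nxph4 were each listed in 1 library alone, with at most 0.0816 FPKM. Nxph2 was listed in neither.

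Genes that make, activate, move and cleave sialic acid were mostly close. Of 15, 10 passed the filter. Among these 10, 1 was lower by 2-fold or more, against 1.9% of all genes counted, and 0 were higher by as much. Of the 10 ratios, 8 were below 0, against 5120 of 12429 over all genes counted. The median log2 ratio was -0.16 against 0.06 over all genes counted. The gene lower by 2-fold or more was Neu1, the lysosomal sialidase, at 70.0 FPKM for wild type and 28.3 for knockout. Siae, the esterase that removes the O-acetyl group, was at 6.89 and 5.36 FPKM, and Gne, which starts sialic acid synthesis, at 182 and 172 FPKM.

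Of 20 sialyltransferase genes, whose enzymes attach sialic acid to glycans, 9 passed the filter. With 1 FPKM added, 2 of them were lower by 2-fold or more, 0 were higher by as much, and 8 of the 9 ratios were below 0, with a median of -0.38. Over all genes counted, 1.9% were lower by 2-fold or more, and 5120 of 12429 ratios were below 0. St3gal4 had 65.9 FPKM for wild type and 6.01 for knockout, a plain ratio of 10.96-fold lower and a log2 ratio of -3.25 beside the -3.23 of Nxpe4. By plain ratio Nxpe4 was 77.2-fold lower, so this closeness depends on the 1 FPKM added. St3gal6 stood at 30.5 and 13.7 FPKM. By plain ratio St3gal5 (2.05 and 0.626 FPKM) was lower by 2-fold or more as well. That makes 3 of 9 by plain ratio, against 3.11% of all genes counted.

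Colon epithelial lineages were compared by their marker genes. The differentiated colonocyte list was lower in the knockout library, with 8 of 24 genes lower by 2-fold or more with 1 FPKM added, 0 higher by as much and a median of -0.86. Nxpe2, at -1.62, lay inside the range of this list, with 4 members at lower ratios: the carbonic anhydrase gene Car4 (275 and 53.0 FPKM), the water channel gene Aqp8 (67.3 and 12.7 FPKM), the sodium/proton exchanger gene Slc9a3 (59.1 and 11.9 FPKM) and the cytochrome P450 gene Cyp2c55 (884 and 220 FPKM). Nxpe4, at -3.23, was below all 24. The other 4 of these 8 genes were Tmigd1 (73.9 and 27.7 FPKM), Clca4a (49.7 and 21.9 FPKM), the antibacterial surface protein gene Lypd8 (7430 and 3555 FPKM) and Car2 (332 and 158 FPKM). By plain ratio Clca4b (15.4 and 7.47 FPKM) was lower by 2-fold or more too. That makes 9 of 24 by plain ratio, against 3.11% of all genes counted. Of the 24 colonocyte genes, 4 had ratios above 0, and these were near equal. They were Krt20 (331 and 333 FPKM), Slc51b (24.7 and 24.8 FPKM), Myo1a (141 and 149 FPKM) and Vil1, the microvillus protein villin (237 and 251 FPKM).

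Goblet cell and mucus genes showed a smaller difference. Of 17, 3 were lower by 2-fold or more, against 1.9% of all genes counted, and 0 were higher by as much. The median was -0.18. The 3 were Reg4 (245 and 65.6 FPKM), Clca1 (768 and 294 FPKM), which encodes a protease of the mucus, and Spink4 (661 and 318 FPKM). The main gel-forming mucin gene Muc2, named after its values were seen, stood at 7418 and 7504 FPKM. Genes of epithelium in general did not include any 2-fold difference among 8, and their median was 0.26, with Cdh1 (177 and 232 FPKM) and Krt19 (1185 and 1505 FPKM) the furthest apart.

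**Figure D4:**
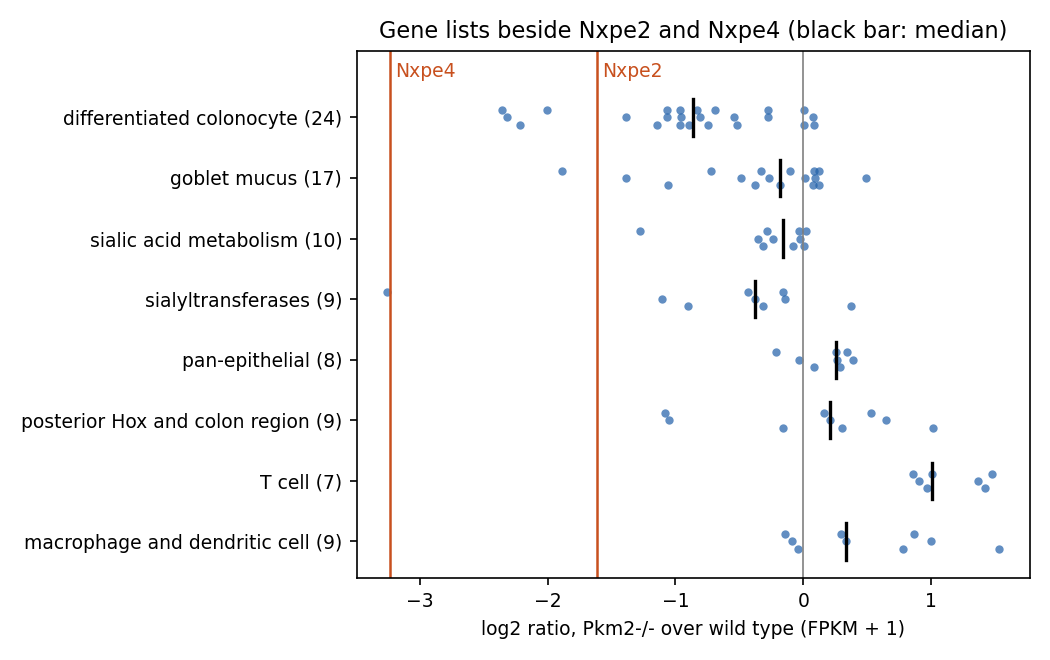
Log2 ratios (Pkm2-/- over wild type, FPKM + 1) of the members of 8 gene lists that average 1 FPKM or more, 1 point per gene with the number of genes in brackets and the median as a black bar. The orange lines mark Nxpe2 (-1.62), inside the range of the colonocyte list, and Nxpe4 (-3.23), outside that list and, on this scale, beside St3gal4 in the sialyltransferase list. By plain ratio Nxpe4 was 77.2-fold lower and St3gal4 10.96-fold.

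Other measures differed between the libraries alongside the Nxpe genes, and their part in the Nxpe differences was not tested. For comparison, 1.9% of all genes counted were at least 2-fold lower and 1.42% at least 2-fold higher with 1 FPKM added. By plain ratio these shares were 3.11% and 2.34%. Homeobox genes that mark position along the gut differed in both directions: Hoxb13 (23.8 FPKM for wild type, 10.7 for knockout) and Hoxd13 (4.56 and 1.69 FPKM), genes of the most distal colon, were at least 2-fold lower, and Hoxa9 (9.30 and 19.9 FPKM) was at least 2-fold higher. Hoxa13 (5.16 and 7.89 FPKM), a gene of the same Hox group 13, was 1.53-fold higher by plain ratio. Hoxa10 (10.9 and 17.7 FPKM) was 1.62-fold higher. The intestinal factors Cdx1 (183 and 204 FPKM) and Cdx2 (78.6 and 97.3 FPKM) differed by less than 1.5-fold, and the list of 15, 9 of them counted, had a median of 0.21. All 10 T cell genes were listed in both libraries, and together they reached 16.01 FPKM for wild type and 46.3 for knockout. All 7 that were counted were at least 2-fold higher by plain ratio, and 4 were so with 1 FPKM added: Cd3e (2.05 and 7.52 FPKM), Cd3g (3.14 and 7.29 FPKM), Cd8a (1.97 and 6.99 FPKM) and Trac (2.41 and 7.78 FPKM). B and plasma cell genes summed to 8.42 and 32.5 FPKM, and Mzb1 was listed in the knockout library alone. The 3 counted genes of that list, Igkc (3.81 and 16.8 FPKM), Igha (3.58 and 12.5 FPKM) and Jchain (0.605 and 2.15 FPKM), were at least 2-fold higher by plain ratio, the first 2 also with 1 FPKM added. Macrophage and dendritic cell genes summed to 37.0 and 43.8 FPKM, of which Cd14 (26.7 and 24.1 FPKM) made up most, and without it the other 11 genes summed to 10.4 and 19.7 FPKM. Of 9 counted, 4 were at least 2-fold higher by plain ratio: Fcer1g (0.804 and 4.22 FPKM) and Itgax (0.355 and 1.71 FPKM), which were so with 1 FPKM added too, C1qb (0.619 and 1.78 FPKM) and Tyrobp (0.777 and 2.25 FPKM). Fibroblast genes summed to 6.08 and 2.82 FPKM, smooth muscle genes to 2.03 and 2.33, endothelial genes to 1.56 and 0.825, and enteric neuron and glia genes to 3.48 and 2.44. The genes of these lists that were counted were Dcn (2.65 and 0.870 FPKM) and Pdgfrb (1.17 and 1.33 FPKM) of fibroblasts, Tagln (1.94 and 2.08 FPKM) of smooth muscle and Snap25 (2.30 and 1.66 FPKM) of neurons. Of them Dcn was at least 2-fold lower by plain ratio. Lum, Actg2, Lmod1, Tie1 and Sox10, markers within these lists, were listed in neither library.

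The genes whose pair of levels was most like that of each member were sought over the 2 libraries, by distance on the log2(FPKM + 1) scale. For Nxpe2 they were the flavin monooxygenase gene Fmo5 (35.4 and 9.27 FPKM, distance 0.203), Duoxa2 (27.9 and 10.6 FPKM, distance 0.218), the maturation factor of a dual oxidase, and the carboxylesterase gene Ces1d (35.8 and 9.69 FPKM, distance 0.221). For Nxpe4 they were further off: the haemoglobin gene Hbb-bs (8.99 and 0.311 FPKM, distance 0.235), Lrg1 (6.94 and 0.334 FPKM, distance 0.478) and the noncoding RNA gene Rmrp (11.1 and 0.542 FPKM, distance 0.496). None of these 6 genes lies on chromosome 9. With 2 libraries such a distance rests on 2 values per gene, and common regulation was not tested. Rn7sk, a noncoding RNA gene as Rmrp is, was lower in the knockout library too (22.3 and 1.06 FPKM).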

How the data were processed

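Values were used as FPKM as the authors deposited them. The files carry no header, and the unit was read from the values and the submitters' processing notes, which name Bowtie2 2.2.9, TopHat2 2.1.1, Cufflinks 2.2.1, Cuffdiff 1.3.0 and 2.2.1 and the build mm8. The listed loci are on GRCm38 instead: 99.4% of 22384 gene IDs occur in GENCODE M21, and 99.9% of those overlap their locus. Strand use is not given in the sources used here.

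Rows sharing a symbol were summed, and an unlisted gene was taken as 0. Log2 ratios used a pseudocount of 1 FPKM. The 12429 genes averaging 1 FPKM or more were counted, and a 2-fold ratio was called apart with 1 FPKM added. Plain ratios, and the macrophage sum without Cd14, were added after the data were seen. With 1 library per genotype no test was made. The worth of 1 fragment came from genes with 1 transcript longer than 1.5 kb. Clopper-Pearson intervals of folds and exact Poisson intervals of levels used the longest protein-coding transcript inside each listed locus, so they are approximate. Calculations used Python 3.11.15, SciPy 1.17.1 and Biopython 1.88 and were tested on simulated data. Other pseudocounts, scalings, filters, windows and transcript lengths were tried.

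Members, lists and motifs were chosen with earlier results of these data known. Named from each list were counted genes at least 2-fold apart, or otherwise the 2 furthest from 0. On chromosome 9 they were nearest neighbours and 2-fold different genes of the 1 Mb windows, and by likeness the 3 nearest genes. Nrxn2, Nrxn3, the neurexophilins, Siae, Gne, Krt20, Slc51b, Myo1a, Vil1, Muc2, Cdx1, Cdx2, Hoxa10, Hoxa13, St3gal5, Clca4b, Jchain, Cd14, C1qb, Tyrobp, Usp28, Celf6, Rn7sk, Rnf225, Chrnb4, Dixdc1, Sema7a and the markers named as unlisted were added after their values were seen.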

Additional observations from a re-analysis of the deposited data

How the results depend on the processing

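Nxpe2 and Nxpe4 stayed at least 2-fold lower in the knockout library under every pseudocount and rescaling tried. The log2 ratio of Nxpe2 ranged from -1.71 to -1.32, the latter with a pseudocount of 5. That of Nxpe4 was -5.43 with a pseudocount of 0.1, -1.50 with a pseudocount of 5 and -4.07 after rescaling both libraries to a common total without mitochondrial genes, since a pseudocount weighs more on lower values. The ratio of Nxpe3 ranged from 0.0076 to 0.25 and that of Nxpe5 from -0.0013 to 0.0031. With the shortest transcript as the length, the counting interval of the wild type over knockout fold of Nxpe5 was 0.0138 to 85.2 in place of 0.0092 to 10.4, because it then rests on fewer fragments. Of 12429 genes counted, 361 were at least 2-fold lower and 272 higher with a pseudocount of 0.1, and 124 and 85 with a pseudocount of 5. Some settings changed the number counted. With a mean of at least 5 FPKM, 154 of 9016 were lower and 111 higher. Without mitochondrial genes 331 of 13942 were lower and 326 higher. By ratios with no pseudocount, an alternative chosen after seeing the data, 387 of 12429 were lower and 291 higher. The T cell median was 1.49 with a pseudocount of 0.1 and 0.62 with a pseudocount of 5. For macrophage and dendritic cell genes the median became -0.14 with a mean of at least 5 FPKM, which leaves 1 gene of that list, Cd14. Within 3 Mb of Nxpe4, 1 of 35 other counted genes (2.86%) was at least 2-fold lower and 1 at least 2-fold higher. Within 3 Mb of Pkm, 1 of 47 (2.13%) was lower and 1 higher by as much. Over all genes counted these shares were 1.9% and 1.42%. Within 1 Mb of Pkm, 0 genes were at least 2-fold apart with a pseudocount of 5 or a mean of at least 5 FPKM. The median over all genes counted was -0.01 with equal library medians, against 0.06 as given. No paired analysis was possible because each genotype has 1 library. Depth limits Nxpe3, Nxpe5 and the knockout value of Nxpe4, which rest on few fragments.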
